A study of Mus musculus with 4 samples.

Results

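The genes described here are 39 genes of mitosis and the G2/M transition, chosen by their symbols as mitotic cyclins, kinases, kinetochore proteins, spindle proteins and cytokinesis proteins. All 39 were among the 25239 gene symbols of the deposited count table, and all 39 passed the filter on low counts, which left 14610 genes for testing. RNA was sequenced from sorted hindlimb bud cells of FVB mouse embryos at embryonic day 11.5. The anterior population was dissected from the anterior domain and sorted as mCherry positive, and the central population was dissected from the central domain and sorted as mCherry negative. Each population had 2 libraries. Both carried the same mCherry reporter, inserted at H11 and driven by the hsp68 promoter with a human ZRS enhancer bearing the 404G>A change, on a genotype labelled wild-type. Shh expression in the limb depends on the ZRS, a distant enhancer. Position in the limb bud and reporter activity differ together between the groups and cannot be told apart. The labels do not say whether the libraries came from separate embryos or pools, so p-values measure only the spread between these libraries, which may be technical.

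Entry into mitosis is driven by cyclin-dependent kinase 1 (Cdk1) bound to A-type and B-type cyclins, which accumulate through G2 and are destroyed when the anaphase-promoting complex (APC/C) marks them for degradation. The transcripts of most mitotic genes follow the same rhythm: they are repressed in quiescent and G1 cells by the DREAM complex and induced in G2 by the transcription factors B-Myb and FoxM1 acting with the MuvB core. The limb bud is a proliferating tissue, and cells that differentiate to cartilage or muscle slow or leave the cycle.

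Library totals ranged from 30080925 to 33257383 counts. The mitotic genes together took 0.761% to 0.780% of the counts of an anterior library and 0.581% to 0.600% of a central library. The 95% exact binomial interval of the lower anterior share was 0.7583% to 0.7645%, and such intervals cover counting error only. They are too narrow even for that if both mates of a read pair were counted. Limb mesenchyme markers summed to 3985 and 3691 CPM in anterior cells and to 3236 and 2958 CPM in central cells, where CPM is the depth-scaled count, with library totals adjusted by TMM (trimmed mean of M-values). Of these 11 markers 5 rose, 2 fell and 4 were not called, with a median log2 fold change of 0.074, so the list did not move one way. Calls follow the rule given in the next paragraph, which called 10.7% of all tested genes higher and 12.3% lower. In the sentences that follow, paired values are those of replicate 1 and replicate 2.

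Most of the mitotic set was higher in anterior cells, each gene by less than 1.5-fold. Of the 39 genes, 36 rose in anterior cells, none fell and 3 were not called. A call was an adjusted p under 0.05 from the edgeR quasi-likelihood fit, with p-values adjusted over all tested genes by Benjamini and Hochberg's method. Over all tested genes the same rule called 10.7% higher and 12.3% lower. Among the 4970 genes at or above the lowest mean level of any member (49.4 CPM), it called 18.1% higher and 8.71% lower. The median log2 fold change of the 39 genes was 0.42, a fold of 1.34, against a median of -0.0087 over all tested genes. Fold changes ranged from 0.18 for the securin gene Pttg1 to 0.56 for Cdk1 on the log2 scale. None reached a 1.5-fold rise, a size that 6.95% of all tested genes reached. In all 39 genes both anterior libraries lay above both central libraries, which held for 30.8% of all tested genes. In other settings with all 4 libraries the number that rose was 32 with library size alone (background 8.6%), 37 with the replicate number as a block (11.4%) and 38 with the block and length offsets (15.2%). At a threshold of 0.01 it was 28 (4.93%). It was 28 without anterior replicate 1 (6.82%), 28 without anterior replicate 2 (5.29%), 37 without central replicate 1 (10.1%) and 35 without central replicate 2 (12.6%).

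**Figure D1:**
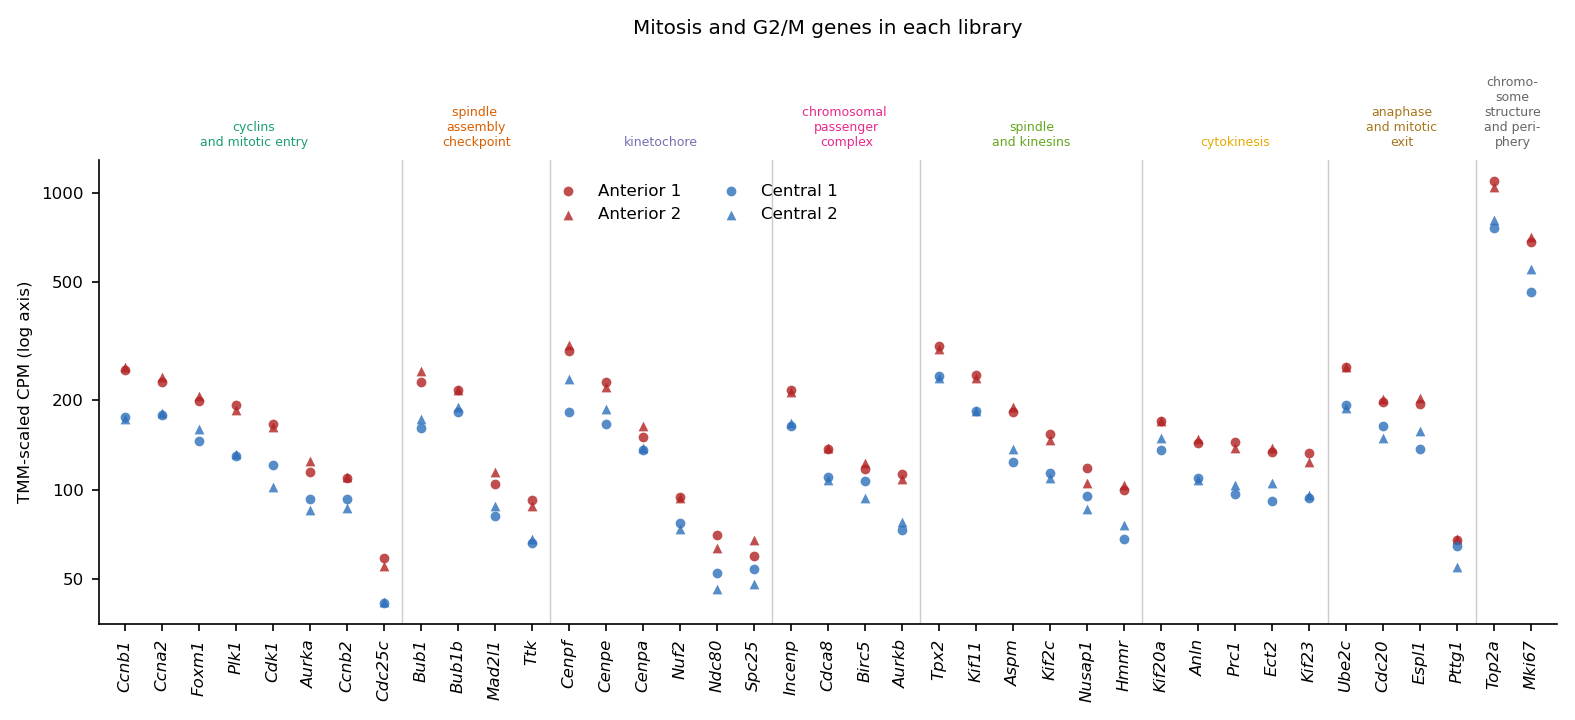
Level of each mitotic gene (TMM-scaled CPM, log axis) in the 2 anterior libraries (red) and the 2 central libraries (blue), circles for replicate 1 and triangles for replicate 2, grouped by role. Both red points lie above both blue points for all 39 genes, with little room between them at Pttg1 (67.7 CPM against 64.8 CPM).

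The sum over the mitotic genes was 7780 and 7807 CPM in the anterior libraries and 5732 and 5963 CPM in the central libraries. The means were 7794 ± 18.8 and 5848 ± 163 CPM (SD, n = 2), a ratio of 1.33. Without Top2a and Mki67, the most abundant members, the sums were 5999 and 6049 CPM against 4508 and 4600 CPM. In bulk RNA, a larger share of cells in G2 and mitosis and more of these transcripts per cell cannot be told apart. The median absolute log2 difference between the anterior replicates was 0.057 over the members and 0.121 over the 14320 tested genes with counts in every library. Between the central replicates it was 0.104 and 0.147.

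**Figure D2:**
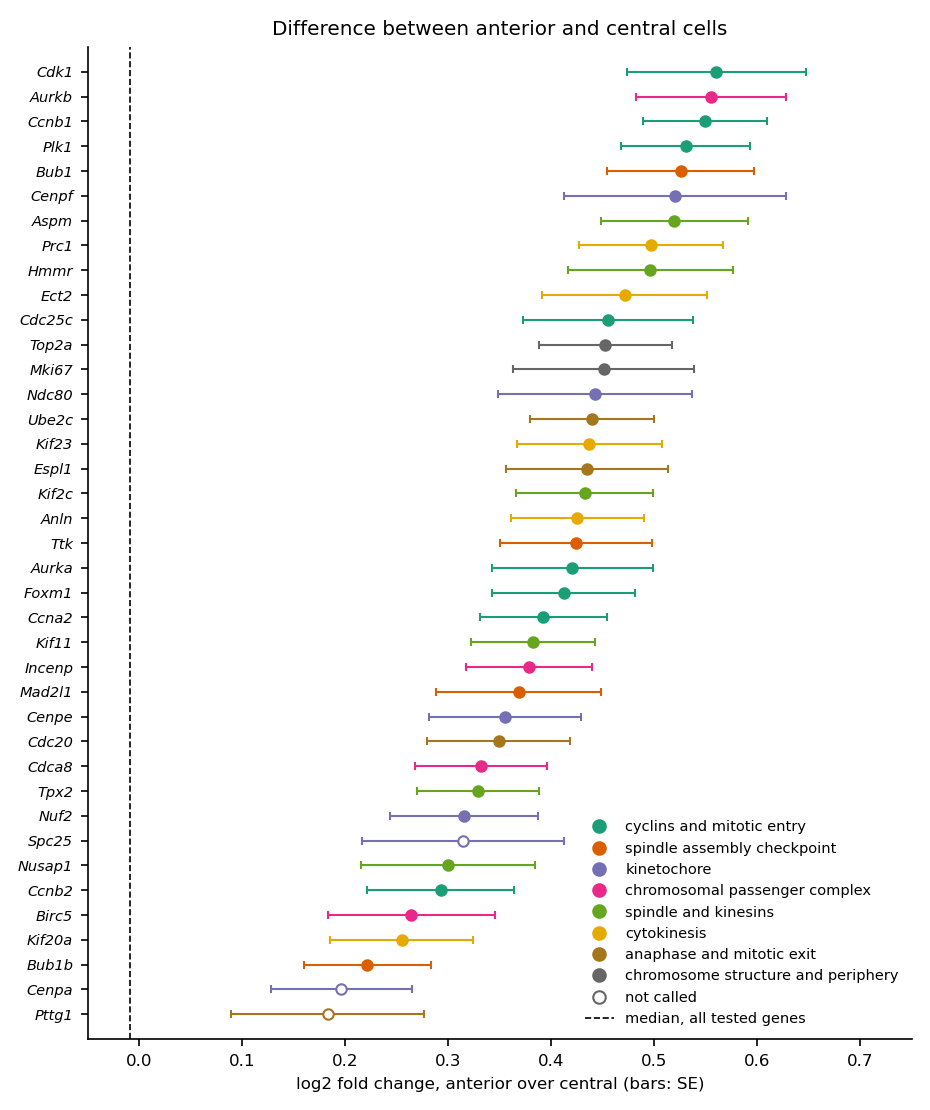
Log2 fold change of each mitotic gene, anterior over central, with its standard error, coloured by role and ordered by size. Filled points passed the test, the 3 open points (Spc25, Cenpa and Pttg1) did not, and the dashed line marks the median of all tested genes at -0.0087.

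The letters of the promoters of these genes were also compared. The genes were chosen by their symbols as mitotic, so motif shares describe that choice and not the difference between the populations. RefSeq promoter windows (GRCm38.p6, 250 bases before to 50 bases after the annotated start) were used for 32 of the 39 genes, that is all but Ccna2, Cdc25c, Foxm1, Aurkb, Incenp, Tpx2 and Kif20a. The windows were searched on both strands for the cell cycle genes homology region (CHR, TTTGAA or TTCGAA), an element bound by the MuvB core, and for the CCAAT box (CCAAT), an element bound by NF-Y. A CHR was present in 25 of the 32 windows (78.1%), against 16.1% of the 11438 tested genes with a window and 21.7% of all 27025 genes with a window. A CCAAT box was present in 24 of the 32 (75%), against 42.8% of the tested genes. Both were present in 22 (68.8%), against 6.84% of the tested genes. In 1 member window a CHR and a CCAAT box shared a base. These matches describe the letters of the reference genome and do not show binding.

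The matches also lay at like positions. A CHR began within 50 bases of the start in 23 of the 32 genes (71.9%), against 4.36% of the tested genes. A CCAAT box began 10 to 60 bases before a CHR in 18 genes (56.2%), against 2% of the tested genes. CCAAT boxes 30 to 35 bases apart occurred in 8 genes (25%), against 3.02% of the tested genes, among them Ccnb1, Cdk1, Aurka and Spc25, each with a step of 32 bases. Both spacings were chosen after the letters were seen. The 120 bases before the start are printed here for a selection of genes in which at most 30 of those bases lie in an annotated exon. The selection holds members with the elements at different places, and Mad2l1 as a stretch with neither. Sequences read 5′ to 3′ on the gene's strand with CHR and CCAAT matches in capitals, and a match on the other strand reads TTCAAA or ATTGG.
Cdk1 (chr10:69352913-69353032, minus strand): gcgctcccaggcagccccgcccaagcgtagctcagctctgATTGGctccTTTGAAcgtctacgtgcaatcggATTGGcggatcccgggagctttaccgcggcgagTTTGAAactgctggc
Ccnb2 (chr9:70421555-70421674, minus strand): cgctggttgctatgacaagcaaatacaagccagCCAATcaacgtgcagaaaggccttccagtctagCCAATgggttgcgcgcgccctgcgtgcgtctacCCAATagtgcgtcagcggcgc
Kif11 (chr19:37376262-37376381, plus strand): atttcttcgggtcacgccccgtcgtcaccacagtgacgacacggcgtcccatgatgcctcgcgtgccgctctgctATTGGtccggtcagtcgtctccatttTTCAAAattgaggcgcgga
Ect2 (chr3:27153879-27153998, minus strand): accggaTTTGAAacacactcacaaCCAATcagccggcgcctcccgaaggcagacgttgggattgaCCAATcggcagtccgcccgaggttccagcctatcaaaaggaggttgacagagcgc
Cdc20 (chr4:118437344-118437463, minus strand): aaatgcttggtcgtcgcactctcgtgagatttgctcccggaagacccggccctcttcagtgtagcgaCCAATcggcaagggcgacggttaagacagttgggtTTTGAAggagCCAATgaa
Espl1 (chr15:102296173-102296292, plus strand): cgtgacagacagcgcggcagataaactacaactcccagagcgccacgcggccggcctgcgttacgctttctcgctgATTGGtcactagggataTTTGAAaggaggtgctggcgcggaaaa
Top2a (chr11:99024190-99024309, minus strand): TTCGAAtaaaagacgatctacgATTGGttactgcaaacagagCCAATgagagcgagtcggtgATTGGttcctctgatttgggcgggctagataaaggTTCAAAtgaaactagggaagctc
Mki67 (chr7:135716380-135716499, minus strand): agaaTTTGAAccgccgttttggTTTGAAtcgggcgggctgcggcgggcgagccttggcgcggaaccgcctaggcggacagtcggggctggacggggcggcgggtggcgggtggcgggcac
Mad2l1 (chr6:66535101-66535220, plus strand): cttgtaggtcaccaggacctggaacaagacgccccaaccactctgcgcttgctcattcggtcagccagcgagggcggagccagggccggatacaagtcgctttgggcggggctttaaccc

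**Figure D3:**
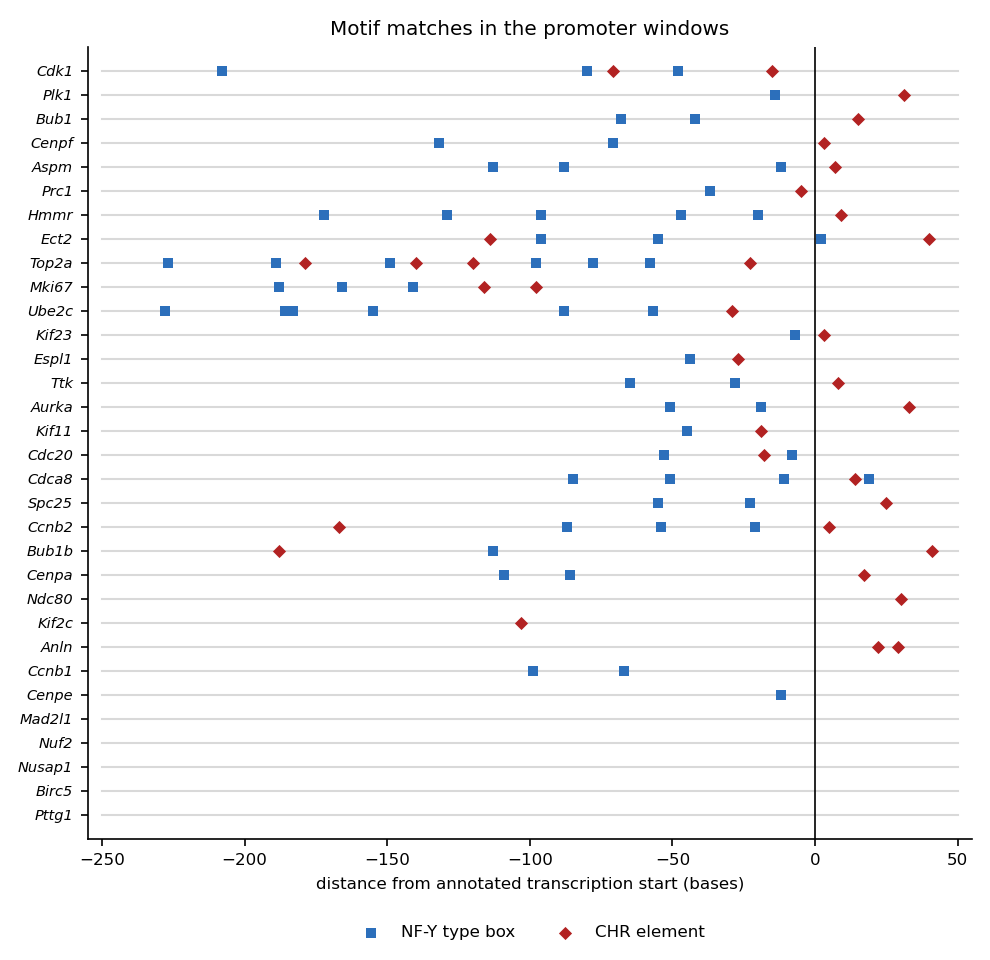
Position of CHR matches (red diamonds) and CCAAT box matches (blue squares, keyed as NF-Y type box) in the promoter windows of 32 mitotic genes, in bases from the annotated start, 1 line per gene. CHR matches gather around the start, CCAAT boxes mostly precede them, and the genes at the bottom (Mad2l1, Nuf2, Nusap1, Birc5 and Pttg1) hold neither.

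In the Cdk1 sequence the CHR matches begin 71 and 15 bases before the start, with CCAAT boxes at 80 and 48 bases before it. In Ccnb2, 3 CCAAT boxes follow each other at equal steps of 33 bases, and a CHR begins at the fifth base of the transcript, beyond the printed stretch. The Top2a and Mki67 stretches each carry 2 CHR matches. Of the 25 genes with a CHR, 23 rose (median log2 fold change 0.44), and all 7 genes without a window rose (median 0.392). The main fit called 10.7% of all tested genes higher. Of the 7 genes with a window and no CHR, 6 rose (median 0.32). The genes with a window but no TTTGAA or TTCGAA were Ccnb1, Mad2l1, Cenpe, Nuf2, Birc5, Nusap1 and Pttg1, of which Pttg1 was not called. No other form of the element was searched. The windows of Pttg1, Kif2c and Cdca8 lay inside the GENCODE M21 span of the gene, not at its outer end. All 120 bases before the Pttg1 start lay in annotated exons, so its lack of a CHR may not describe its promoter. Of the other genes without a CHR, Nusap1 also had all 120 of these bases in annotated exons, and Ccnb1 had 84. The differences between these medians were not tested.

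Counts by role, here and below, divide the same 36 calls, against 10.7% called higher over all tested genes. All 8 genes of the entry into mitosis rose, with a median log2 fold change of 0.44. Ccnb1 encodes the main mitotic cyclin and spans 100778650 to 100786570 on chromosome 13 (GRCm38, GENCODE M21). It measured 252 and 258 CPM in anterior cells and 176 and 173 CPM in central cells. The log2 fold change of Ccnb1 was 0.55 ± 0.061 (SE), with an edgeR adjusted p of 0.000358, and both groups were tight and well apart. Cdk1, the kinase that binds it (chromosome 10, 69335146 to 69352938), measured 166 and 163 CPM against 121 and 102 CPM. Its rise was the largest of the set (log2 fold change 0.56 ± 0.087, edgeR adjusted p 0.00232), and the central libraries differed from each other more than the anterior ones did. Ccna2, cyclin A2, which acts in S phase and G2, measured 231 and 241 CPM against 179 and 181 CPM. Ccnb2, another B-type cyclin, measured 109.9 and 110.3 CPM against 93.1 and 86.7 CPM, and its log2 fold change of 0.29 ± 0.071 was the smallest of the group. Set per length of annotated exons, the ratio of the Ccnb1 level to the Ccnb2 level was 0.834 and 0.849 in anterior cells and 0.685 and 0.725 in central cells. Of the 5 such ratios computed between members, Ndc80 over Nuf2 also had groups that did not overlap (0.724 and 0.663 against 0.659 and 0.611). The groups overlapped for Ccnb1 over Cdk1 (1.78 and 1.85 against 1.7 and 1.99), Aurka over Aurkb (1.18 and 1.34 against 1.48 and 1.28) and Spc25 over Nuf2 (1.25 and 1.44 against 1.39 and 1.29). None of these ratios was tested.

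The kinases, the phosphatase and the transcription factor of mitotic entry all rose. Plk1, the polo-like kinase that promotes mitotic entry and spindle assembly, measured 193 and 186 CPM in anterior cells against 130.3 and 132 CPM in central cells (log2 fold change 0.53 ± 0.063, edgeR adjusted p 0.00054). Aurka, the spindle pole kinase that activates it, measured 115 and 125 CPM against 93.4 and 85.7 CPM. Cdc25c, a phosphatase that removes inhibitory phosphate from Cdk1, was the least abundant member in CPM, at 58.7 and 55.5 CPM against 41.4 and 41.9 CPM. Foxm1, a transcription factor of the G2 programme, measured 199 and 208 CPM against 146 and 159.6 CPM (log2 fold change 0.41 ± 0.069, edgeR adjusted p 0.00343).

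The spindle assembly checkpoint delays anaphase until the chromosomes are attached, and its 4 genes all rose. Bub1, a kinase at the kinetochore, had the largest change, from 161 and 173 CPM in central cells to 231 and 251 CPM in anterior cells (log2 fold change 0.53 ± 0.071, edgeR adjusted p 0.00115). Bub1b, encoding the checkpoint component BubR1, had the smallest, from 182 and 189.8 CPM to 217 and 217 CPM (log2 fold change 0.22 ± 0.062, edgeR adjusted p 0.0326). That call was lost when libraries were scaled by total alone (adjusted p 0.0595) or by upper-quartile factors (0.0574). Mad2l1, the inhibitor of Cdc20, measured 104 and 115 CPM against 81.3 and 88.2 CPM. Ttk, the kinase that recruits the checkpoint proteins, measured 92.0 and 88.1 CPM against 65.9 and 68.4 CPM.

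Kinetochore genes, which link centromeres to spindle fibres, had a median log2 fold change of 0.335, and 4 of the 6 rose. Cenpf, a large protein of the outer kinetochore, had 294 and 307 CPM in anterior cells and 183 and 236 CPM in central cells. Its central libraries were farther apart than those of any other member, at a log2 difference of 0.37. Cenpe, a kinesin that moves chromosomes to the metaphase plate, measured 231 and 221 CPM against 167 and 187 CPM. The Ndc80 complex, which grips the microtubule, is represented by Ndc80, Nuf2 and Spc25. Ndc80 measured 70.1 and 63.6 CPM against 52.3 and 46.2 CPM, and Nuf2 measured 94.7 and 93.8 CPM against 77.5 and 73.9 CPM. Spc25 measured 59.6 and 67.7 CPM against 54.3 and 48.1 CPM and missed the threshold narrowly (log2 fold change 0.31 ± 0.098, edgeR adjusted p 0.05005). It was called in 10 of 13 other settings that used all 4 libraries, among them the DESeq2 Wald test (adjusted p 0.0418). Cenpa, the histone H3 variant that marks the centromere, measured 151 and 164 CPM against 136 and 138 CPM and was not called (log2 fold change 0.20 ± 0.069, edgeR adjusted p 0.0727).

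The chromosomal passenger complex corrects faulty attachments and later prepares the cleavage plane. All 4 of its genes rose. Aurkb, its kinase, went from 73.3 and 77.8 CPM in central cells to 113 and 109 CPM in anterior cells (log2 fold change 0.55 ± 0.073, edgeR adjusted p 0.000952), next to Cdk1 in size. The scaffold gene Incenp measured 217 and 213 CPM against 163 and 168 CPM. Cdca8, encoding the targeting subunit borealin, measured 137 and 138 CPM against 110.2 and 108 CPM. Birc5, encoding the targeting subunit survivin, measured 117 and 123 CPM against 107 and 93.8 CPM. The Birc5 call (edgeR adjusted p 0.0462) was lost with library size alone (0.0773), upper-quartile factors (0.0842) and a filter at a mean count of 50 (0.0542).

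All 6 spindle genes rose, with a median log2 fold change of 0.41. Tpx2, a nucleator of spindle microtubules and activator of Aurora A, was the most abundant, at 304 and 298 CPM in anterior cells against 242 and 238 CPM in central cells. Kif11, the kinesin that pushes the spindle poles apart, measured 243 and 237 CPM against 184 and 184 CPM. The microtubule depolymerase Kif2c measured 154 and 148 CPM against 114 and 109 CPM. The largest change was at Aspm, a spindle pole protein, with 183 and 190.2 CPM against 124 and 137 CPM (log2 fold change 0.52 ± 0.071, edgeR adjusted p 0.00123). Hmmr, a spindle protein and hyaluronan receptor, followed at 99.96 and 104 CPM against 68.3 and 76.2 CPM. Nusap1, which bundles spindle microtubules, measured 118 and 105 CPM against 95.2 and 86.3 CPM. The Nusap1 call (edgeR adjusted p 0.0343) was lost with library size alone (0.0704) and upper-quartile factors (0.0638).

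Genes of cytokinesis, the final division of the cell body, also all rose (5 of 5, median log2 fold change 0.44). Prc1, which bundles the antiparallel microtubules of the midzone, had the largest change, at 145 and 138 CPM in anterior cells against 96.9 and 104 CPM in central cells (log2 fold change 0.50 ± 0.070, edgeR adjusted p 0.00139). Ect2, the exchange factor that activates RhoA at the cleavage furrow, measured 134 and 138 CPM against 91.7 and 105 CPM. Kif23, a midzone kinesin, measured 133 and 124 CPM against 93.7 and 95.9 CPM. Anln, encoding the contractile ring scaffold anillin, measured 144 and 149 CPM against 109.8 and 108 CPM. Kif20a, another midzone kinesin, had the smallest change, at 171.0 and 170.5 CPM against 137 and 149.8 CPM. Its call (edgeR adjusted p 0.0298) was lost with library size alone (0.051).

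Of the 4 genes of anaphase and mitotic exit, 3 rose. Ube2c, the ubiquitin-conjugating enzyme of the APC/C, measured 258 and 259 CPM in anterior cells against 193 and 188 CPM in central cells (log2 fold change 0.44 ± 0.060, edgeR adjusted p 0.00121). Cdc20, the activator of the APC/C in mitosis, measured 197 and 202 CPM against 164 and 149 CPM. Espl1, encoding separase, the protease that cuts cohesin, measured 195 and 204 CPM against 137 and 158 CPM. Pttg1 encodes securin, the inhibitor of separase. It had 67.7 and 68.3 CPM against 64.8 and 55.1 CPM and was not called (log2 fold change 0.18 ± 0.094, edgeR adjusted p 0.203). Of all the genes named so far, Ccna2, Cdc25c, Plk1, Cdca8, Nusap1, Kif20a, Prc1, Cdc20 and Ube2c share exon sequence with a gene on the opposite strand in GENCODE M21. Whether counting used strand is not given in the sources used here, so reads of such partners cannot be told apart.

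Top2a and Mki67 were the most abundant members in CPM. Top2a, the topoisomerase that untangles sister chromatids (chromosome 11, 98992943 to 99024189), measured 1099 and 1049 CPM in anterior cells and 762 and 808 CPM in central cells (log2 fold change 0.45 ± 0.065, edgeR adjusted p 0.00153). Mki67 encodes the chromosome-coating protein that is widely used as a proliferation marker. Its levels were 682 and 709 CPM against 462 and 556 CPM (log2 fold change 0.45 ± 0.088, edgeR adjusted p 0.0071). Levels were also compared per length of annotated exons (RPKM, CPM per kilobase). On that scale Top2a was at 119 in anterior and 87.1 in central cells, Cdc20 at 107 and 83.8, and Ube2c at 99.4 and 73.3. These stood at the 97.8, 97.5 and 97.2 percentiles of the tested genes. The lowest member on that scale was Ndc80, at 10.3 and 7.59 RPKM, the 61.3 percentile.

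The central replicates differed by gene length within the set. Across the 39 genes, which are not independent replicates and share the same libraries, the log2 difference between central replicate 2 and replicate 1 correlated with log2 exon length at 0.629 (Pearson) and 0.581 (Spearman). Long genes such as Cenpf, Mki67 and Espl1 were higher in central replicate 2, and shorter ones such as Pttg1 and Spc25 were lower. Not every gene followed this, since the long genes Anln and Ndc80 were also lower in central replicate 2. Over the 14019 tested genes with a length and counts in every library the correlations were 0.074 and 0.218. For the anterior replicates they were -0.021 and -0.011 over the 39 genes. The fold change between populations correlated with length at 0.294 and 0.282 over the 39 genes, and at -0.045 and -0.0167 over the 14019 tested genes. With offsets for length fitted per library, 37 of the 39 genes were called higher (12.2% of all tested genes) and the median log2 fold change was 0.42.

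A further 77 mitotic genes for condensins, kinesins, centromere proteins and cytokinesis were examined, of which 52 rose and none fell, with a median log2 fold change of 0.33. The main fit called 10.7% of all tested genes higher and 12.3% lower. Without anterior replicate 2 the number that rose was 30 (background 5.29% of all genes tested in that fit). Bora, a cofactor for Plk1 activation by Aurora A, had the largest rise, at 119.6 and 105 CPM in anterior cells against 68.4 and 65.5 CPM in central cells (log2 fold change 0.74 ± 0.085, edgeR adjusted p 0.000426). Haspin, the kinase that marks histone H3 for the passenger complex, followed at 0.65, then Sapcd2 at 0.62 and Gtse1 at 0.55 on the log2 scale. Values below 0 were seen at Ska2 (-0.028) and Cenpt (-0.19), neither called, with edgeR adjusted p-values of 0.822 and 0.177. Both were named after their values were seen.

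**Figure D4:**
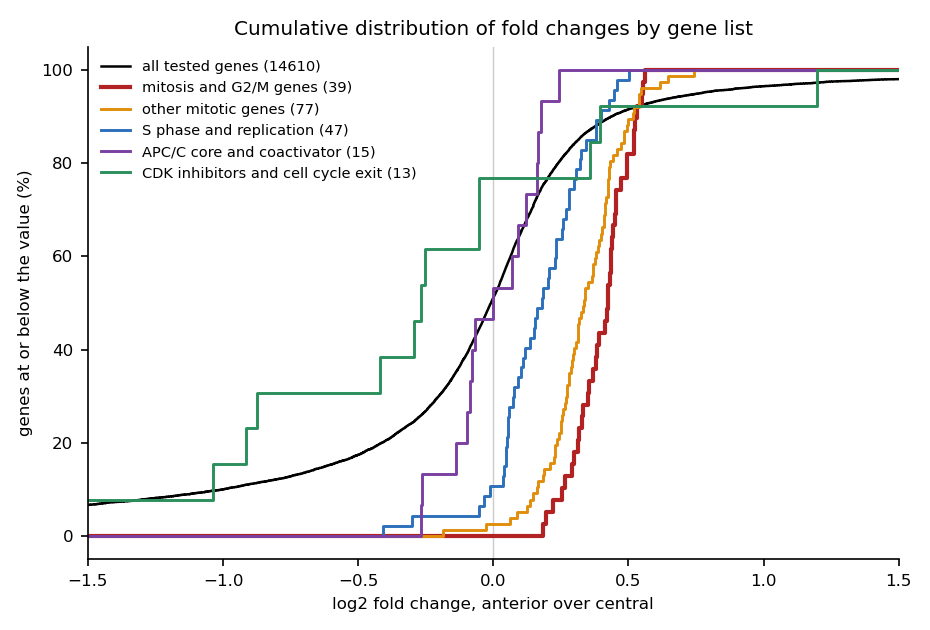
Cumulative share of genes (%) by log2 fold change, anterior over central, for all tested genes and for 5 lists, with the number of tested genes in brackets and the axis limited to -1.5 to 1.5. The mitotic genes lie wholly right of 0 (0.18 to 0.56), the median of the S phase genes is 0.18 and that of the CDK inhibitors is -0.268.

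Regulators of Cdk1 phosphorylation rose in 4 of 14 cases and fell in none, against 10.7% called higher and 12.3% lower over all tested genes. Cdc25b, a phosphatase that starts Cdk1 activation, measured 59.99 and 63.1 CPM against 49.8 and 50.6 CPM (log2 fold change 0.29 ± 0.080, edgeR adjusted p 0.0304). Cdc14a, Mastl and Ppp2r2a rose by 0.49, 0.43 and 0.29 on the log2 scale. Wee1, the kinase that restrains Cdk1, measured 99.2 and 93.4 CPM against 88.7 and 85.7 CPM and was not called (edgeR adjusted p 0.197). With anterior replicate 1 or anterior replicate 2 left out, 2 genes of the list were called higher, and without central replicate 2 the list gave 6 higher and 1 lower (backgrounds 12.6% and 12.1%).

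Among transcriptional regulators of the programme (MuvB, B-Myb, DREAM, E2F and NF-Y subunits), 8 of 23 rose and none fell. The shares over all tested genes were 10.7% higher and 12.3% lower. Mybl2, encoding B-Myb, measured 92.0 and 87.8 CPM in anterior cells against 54.1 and 71.5 CPM in central cells (log2 fold change 0.52 ± 0.12, edgeR adjusted p 0.0157). E2f7, Lin54 and E2f5 rose by 0.45, 0.43 and 0.38. The number that rose was 4 with library size alone or upper-quartile factors (background 8.61%, with 1 called lower by the latter), and 3 without either one of the anterior libraries. Of the 15 genes of the APC/C core and its G1 activator, 1 rose and none fell, with a median log2 fold change of -0.0011. A count of 1 is near the share called higher over all tested genes. That gene was the activator Fzr1, encoding Cdh1, at 148 and 146 CPM against 127 and 122 CPM (log2 fold change 0.24 ± 0.064, edgeR adjusted p 0.0268). No gene of this list was called higher with library size alone, with upper-quartile factors or without either one of the anterior libraries, and 1 was called lower with each of those scalings (backgrounds 12.8% and 13.4%). Without central replicate 2 the median log2 fold change of the list was -0.0575, and without central replicate 1 it was 0.0568. The median of this list changed sign between settings, from -0.0575 to 0.0568. The difference between the APC/C core and the mitotic genes was not tested.

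Of 47 genes of S phase and replication, 19 rose and 2 fell, with a median log2 fold change of 0.18. The same rule called 10.7% of all tested genes higher and 12.3% lower. Their sum was 8076 and 8298 CPM in anterior cells against 7118 and 7320 CPM in central cells. The ratio of the summed mitotic genes to the summed S phase genes was 0.963 and 0.941 in anterior cells and 0.805 and 0.815 in central cells. The groups do not overlap, and the difference was not tested. Pcna, the replication clamp, measured 445 and 463 CPM against 380.4 and 367 CPM (log2 fold change 0.28 ± 0.062, edgeR adjusted p 0.0123). Mcm10, Orc1, Ccne2 and Rrm2 rose by 0.50, 0.46, 0.45 and 0.43. Cdc7, a kinase that fires replication origins, fell by 0.41 on the log2 scale (edgeR adjusted p 0.00525) and Gins2 fell by 0.30 (0.0494). The number of S phase genes that rose was 11 with library size alone (background 8.6%) or upper-quartile factors (8.61%). It was lower still with either anterior library left out, where fewer of all tested genes were called higher too.

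Of 6 G1 cyclins and kinases, Ccnd3 rose (log2 fold change 0.32, edgeR adjusted p 0.00899) and the others were not called. Ccnd1, cyclin D1, measured 269 and 254 CPM in anterior cells against 289.9 and 324 CPM in central cells (log2 fold change -0.23 ± 0.073, edgeR adjusted p 0.052). Of 13 tested CDK inhibitors and cell cycle exit genes, 5 fell and 1 rose. For both lists the shares over all tested genes were 10.7% higher and 12.3% lower. Cdkn1a, encoding the inhibitor p21, had 1.86 and 1.36 CPM against 15.4 and 22.3 CPM (log2 fold change -3.54 ± 0.26, edgeR adjusted p 3.39e-05). Cdkn1c, encoding p57, measured 492 and 397 CPM against 936 and 742 CPM (log2 fold change -0.92 ± 0.13, edgeR adjusted p 0.00123). Btg2 and Trp53inp1 fell by 1.04 and 0.87 on the log2 scale. Cdkn1b, encoding p27, measured 59.1 and 54.9 CPM against 63.1 and 55.1 CPM and was not called (edgeR adjusted p 0.741). Gadd45b rose by 1.199 in log2 units, a call that was lost without anterior replicate 1.

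Markers of other cell types differed between the populations. In the main fit, 10.7% of all tested genes were called higher and 12.3% lower. Erythroid markers rose in anterior cells in 11 of 11 tested genes, summing to 3322 and 8472 CPM against 9.74 and 13.4 CPM. The adult globin genes Hba-a1, Hba-a2, Hbb-bs and Hbb-bt were at 0 counts in all 4 libraries. How reads that match several genes were counted is not given, so these zeros do not show that the transcripts were absent. Macrophage markers rose in 7 of 11 genes and summed to 36.3 and 34.3 CPM against 10.98 and 10.4 CPM. Chondrogenic markers fell in 8 of 11, summing to 527 and 392 CPM against 1736 and 1339 CPM, and Snorc was at 0 counts in all 4 libraries. Myogenic markers fell in 8 of 9 (4.89 and 2.83 CPM against 154 and 150.3 CPM). Myf6 was too low to test, with 2 counts in central replicate 1 and 0 in the other libraries. Surface ectoderm markers fell in 12 of 13 (11.1 and 11.3 CPM against 63.1 and 216 CPM) and endothelial markers in 7 of 11 (13.0 and 15.5 CPM against 40.8 and 48.6 CPM). With the erythroid, myogenic, ectoderm, endothelial and macrophage markers removed before scaling, 37 of the 39 mitotic genes were called higher (10.7% of all tested genes). That removal changes the scaling only. The part of erythroid, chondrogenic, myogenic, macrophage, ectoderm and endothelial cells in the mitotic difference was not tested.

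**Figure D5:**
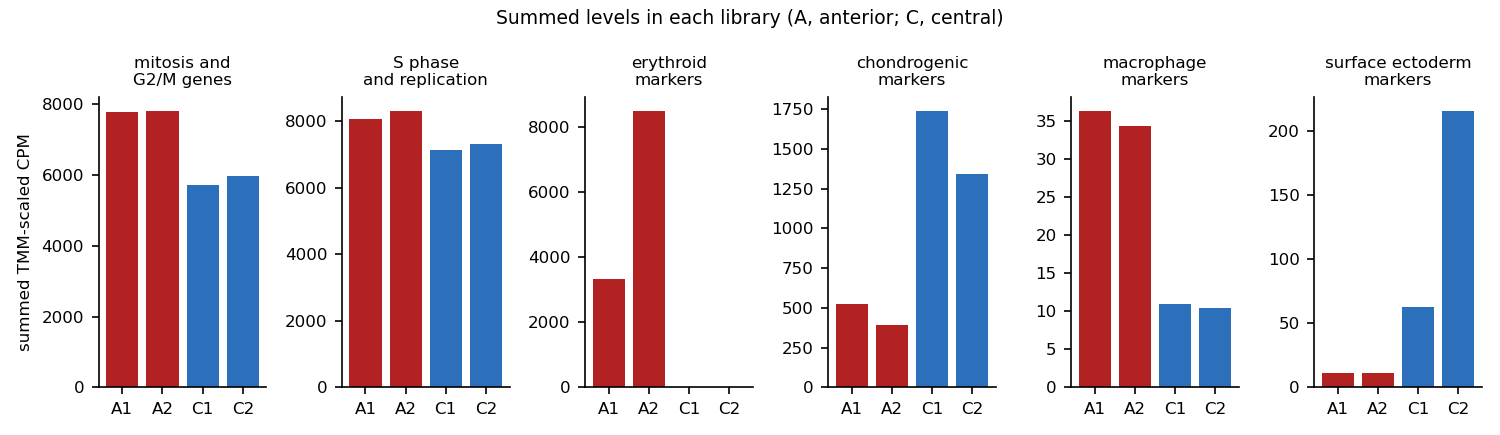
Summed level (TMM-scaled CPM) of the mitotic genes, the S phase genes and 4 marker lists in each library, red for anterior (A1, A2) and blue for central (C1, C2), each panel with its own axis from 0. The mitotic sum is 7780 and 7807 CPM in the anterior libraries and 5732 and 5963 CPM in the central ones, and the erythroid sum is 3322 and 8472 CPM against 9.74 and 13.4 CPM.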

How the data were processed

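The authors deposited whole-number read counts per gene symbol, not normalized, for 2 anterior and 2 central libraries of paired-end RNA-seq. Per the submitters' processing notes, STAR 2.7.9a, HTSeq, DESeq2 (version given as 3.16) and mm10 were used; roles, annotation and strand setting are not given in the sources used here. Columns were matched to samples by domain name and replicate number. Counts were fitted in edgeR 4.0.16 (R 4.3.3) with filterByExpr defaults, TMM scaling, and the quasi-likelihood F test fitted to all genes without a block, called at a Benjamini-Hochberg adjusted p under 0.05. The SE is the absolute log2 fold change divided by the square root of F. RPKM used exon-union lengths of GENCODE M21 (GRCm38). Alternatives used other scalings, filters and tests (limma 3.58.1, DESeq2 1.42.0), the replicate block, halved counts, removed marker genes, and each library left out; length offsets were added after seeing the data. The pipeline was run on simulated data with planted changes larger than those of any mitotic gene described here. That run does not test calls at the size of the mitotic genes' changes. Even numbers made up 72.8% to 75.6% of counts between 1 and 10, so both mates of a pair may have been counted. The mitotic genes and the lists were chosen with earlier results of these data known. All 39 are reported; of other lists, at most the 4 largest changes in each direction among called genes with a mean of at least 5 CPM and no overlap between groups are named, plus Mybl2, Wee1, Cdc25b, Fzr1, Cdkn1a, Cdkn1b, Cdkn1c, Ccnd1 and Pcna; Ska2 and Cenpt were named outside this rule, after their values were seen. Marker lists are given by sums and counts, with Myf6 and the markers at 0 counts in all 4 libraries named.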

Additional observations from a re-analysis of the deposited data

How the results depend on the processing

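The number of mitotic genes called higher was 36, and it ranged from 32 (library size alone) to 38 (replicate block with length offsets) over 13 other settings with all 4 libraries, and was 28 at a threshold of 0.01. No mitotic gene was called lower and none changed sign in any of these. Of 507 values of single genes, 488 kept their side of the threshold, 8 lost the call and 11 gained it, and 33 of the 39 genes kept theirs throughout. With 1 library left out, where the lone library is assumed to vary like the other group, 28 to 37 genes were called higher and the median log2 fold change was 0.386 to 0.422. The replicate numbers are shared by the groups, but the labels do not tie them to embryos, and replicate differences in the populations correlated at 0.044 (Pearson) and 0.029 (Spearman) over 14320 genes. Without anterior replicate 1, calls were lost for Ccnb2, Bub1b, Cenpe, Ndc80, Nuf2, Birc5, Tpx2, Nusap1 and Kif20a, and without anterior replicate 2 for Ccnb2, Bub1b, Mad2l1, Nuf2, Birc5, Cdca8, Kif20a and Cdc20. Without central replicate 1 Kif20a lost its call, and without central replicate 2 Birc5 and Nusap1 did. With the replicate block 37 genes were called higher, Spc25 being the addition (adjusted p 0.0449), and the block changed no other mitotic gene's call. With 2 libraries per group, calls near the threshold are uncertain. The median log2 fold change of the APC/C list, -0.0011, changed sign with DESeq2 size factors (0.00253), limma-voom (0.0035), no filter (0.00465), the DESeq2 Wald test (0.00264), the replicate block (0.00438) and the block with length offsets (0.00017), and ranged from -0.0575 to 0.0568 with 1 library left out. That of the G1 cyclins and kinases, -0.0125, ranged from -0.0419 to 0.0199 with 1 library left out. The cause was not tested in any of these.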
